A study of Mus musculus with 47 samples.

Results

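The Wnt ligands, their Frizzled receptors and the secreted and membrane proteins that modulate them were followed through the postnatal growth of the mouse olfactory epithelium, where the sensory neurons of smell sit. The group was chosen by gene symbol alone: every gene of the expression table named Wnt, Fzd, Sfrp, Dkk, Rspo or Lgr4 to Lgr6. It held 44 of the 54532 genes in the table, made up of 19 Wnt ligands, 10 Frizzled receptors, 4 secreted Frizzled-related proteins (Sfrp), 4 Dickkopf proteins (Dkk), 4 R-spondins (Rspo) and 3 R-spondin receptors (Lgr).

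The series holds 47 libraries of polyA RNA from dissected olfactory epithelium. The Kir group carries the strain label OIVT;Kir2.1 and is called Kir2.1 mice in the series' design, and it has 4 libraries at P0, 3 at P3, 3 at P5, 4 at P7, 4 at P10, 3 at P14 and 3 at P21. The WT group carries the strain label C57BL/6J, and it has 4 libraries at P0, 3 at P3, 3 at P5, 4 at P7, 3 at P10, 3 at P14 and 3 at P21. P0 to P21 are postnatal days. Kir2.1 is an inwardly rectifying potassium channel, encoded by Kcnj2, and its forced expression is commonly used to dampen the electrical activity of neurons. The labels do not say what drives Kir2.1 here, in which cells it is made, or whether WT animals carried any part of the OIVT allele. They also do not say whether replicates are separate animals, so p-values measure only the spread between these samples. One WT library is titled P0 but has the stage label P3. The design text counts 4 WT samples at P0 and 3 at P3, so it was kept at P0 as replicate 3, and results that depend on this are named.

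Wnt ligands are secreted, lipid-modified glycoproteins that bind Frizzled receptors together with the co-receptors Lrp5 or Lrp6 and stabilize beta-catenin, which then acts with TCF/LEF factors on target genes. Some ligands, such as Wnt5a and Wnt11, are best known for signaling without beta-catenin, through co-receptors such as Ror2. Sfrp proteins bind Wnt ligands outside the cell, Dkk proteins such as Dkk1 and Dkk2 block the Lrp co-receptors, and R-spondins bind Lgr4, Lgr5 and Lgr6 and keep Frizzled receptors at the cell surface. The olfactory epithelium renews its neurons from basal stem cells throughout life, and Lgr5 is known to mark some of its basal progenitors.

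The upstream windows of 4 members that the results turn on are shown, as the stretches next to the starts of genes that moved together: Wnt11 and Sfrp2, which fell with age in both genotypes, and Lgr6 and Rspo1, which were higher in Kir. Each window is the 250 bases before the transcription start in RefSeq (GRCm38.p6), written 5' to 3' along the gene's strand. Capitals mark the letters of a TCF/LEF motif (CTTTGA or CTTTGT, on either strand) or of a GC box (GGGCGG, on either strand, the motif of Sp factors).
Wnt11, chr7:98834862-98835111, plus strand: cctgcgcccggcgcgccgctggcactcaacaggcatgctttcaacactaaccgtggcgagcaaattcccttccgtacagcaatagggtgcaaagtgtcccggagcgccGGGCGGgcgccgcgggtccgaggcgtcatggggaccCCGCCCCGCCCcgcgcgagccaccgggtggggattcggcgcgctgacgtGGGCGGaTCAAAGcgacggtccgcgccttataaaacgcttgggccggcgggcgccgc
Sfrp2, chr3:83766071-83766320, plus strand: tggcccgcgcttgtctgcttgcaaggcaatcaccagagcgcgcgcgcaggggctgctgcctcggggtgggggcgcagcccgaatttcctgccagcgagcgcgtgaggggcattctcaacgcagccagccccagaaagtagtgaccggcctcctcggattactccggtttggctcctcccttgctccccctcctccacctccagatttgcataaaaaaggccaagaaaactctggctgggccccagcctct
Lgr6, chr1:135105277-135105526, minus strand: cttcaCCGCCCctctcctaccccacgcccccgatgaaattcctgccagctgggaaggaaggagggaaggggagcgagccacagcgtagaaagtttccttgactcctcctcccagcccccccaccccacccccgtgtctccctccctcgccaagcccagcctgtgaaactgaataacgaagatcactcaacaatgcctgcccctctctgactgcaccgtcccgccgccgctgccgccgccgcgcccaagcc
Rspo1, chr4:124986180-124986429, plus strand: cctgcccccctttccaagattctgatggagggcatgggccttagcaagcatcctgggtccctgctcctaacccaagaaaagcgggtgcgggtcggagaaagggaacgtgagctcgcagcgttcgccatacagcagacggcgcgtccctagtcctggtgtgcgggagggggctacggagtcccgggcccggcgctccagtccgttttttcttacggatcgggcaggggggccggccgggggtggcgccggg
The Wnt11 window shown held 1 TCF/LEF match, 50 bases before the start on the minus strand, and 4 GC boxes. Of these boxes 1 lay next to that match and a pair lay side by side. Wnt11 also had a second RefSeq window, chr7:98838595-98838844, which held neither motif. The Lgr6 window held 1 GC box and the Sfrp2 and Rspo1 windows held neither motif. RefSeq windows were matched for 29 of the 44 members, 32 windows in all, of which 21.9% held the TCF/LEF letters and 68.8% a GC box, beside 27.6% and 32.7% of all 32851 windows of the same length. A match describes letters in a window and is not a measured site.

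Several libraries stood apart in ways that touch these genes. Kcnj2 lay between 132 and 1648 CPM (counts scaled to a fixed library total) in the 24 Kir libraries, with a median of 829, and between 36.8 and 104 CPM in the 23 WT libraries, with a median of 50.6. The genotypes did not overlap, and 5 Kir libraries (P3 replicate 3, P7 replicates 1 and 4, P21 replicates 1 and 2) lay below the other 19. The gene counts per library summed to between 8107547 and 30385151. The defining markers of the labelled tissue were present: those of mature sensory neurons (Omp, Cnga2, Adcy3, Gnal, Cnga4) summed, in TPM (transcripts scaled to a fixed library total), to 2841 to 3033 in Kir libraries and 3490 to 3761 in WT libraries at P21.

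Kir P0 replicate 4 had skeletal muscle markers (Acta1, Ckm, Myh3, Myh8) summing to 1175 TPM, against 2.62 to 13.8 TPM in the other P0 libraries of both genotypes. Its fibroblast markers (Col1a1, Col1a2, Dcn, Lum, Pdgfra) summed to 1668 TPM, against 284 to 623 TPM in the other P0 libraries. This library had the highest TPM of all 47 libraries for 18 of the 44 genes. WT P0 replicate 1 had brain neuron markers (Gria2, Gad1, Slc32a1, Neurod6, Tbr1) summing to 80.2 TPM, against 2.43 to 5.09 TPM in the other P0 libraries. It was also where Wnt7a, a ligand with a known role in the developing brain, was found: 6.8 TPM (193 counts), with at most 0.22 TPM in any other library. Cartilage markers (Col2a1, Col9a1, Col9a3, Acan, Matn1) summed to 242 to 2938 TPM in Kir P0 libraries and 70.1 to 2728 TPM in WT P0 libraries. What part these other tissues have in the P0 values of the Wnt genes was not tested, and results that changed without them are named below.

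**Figure D1:**
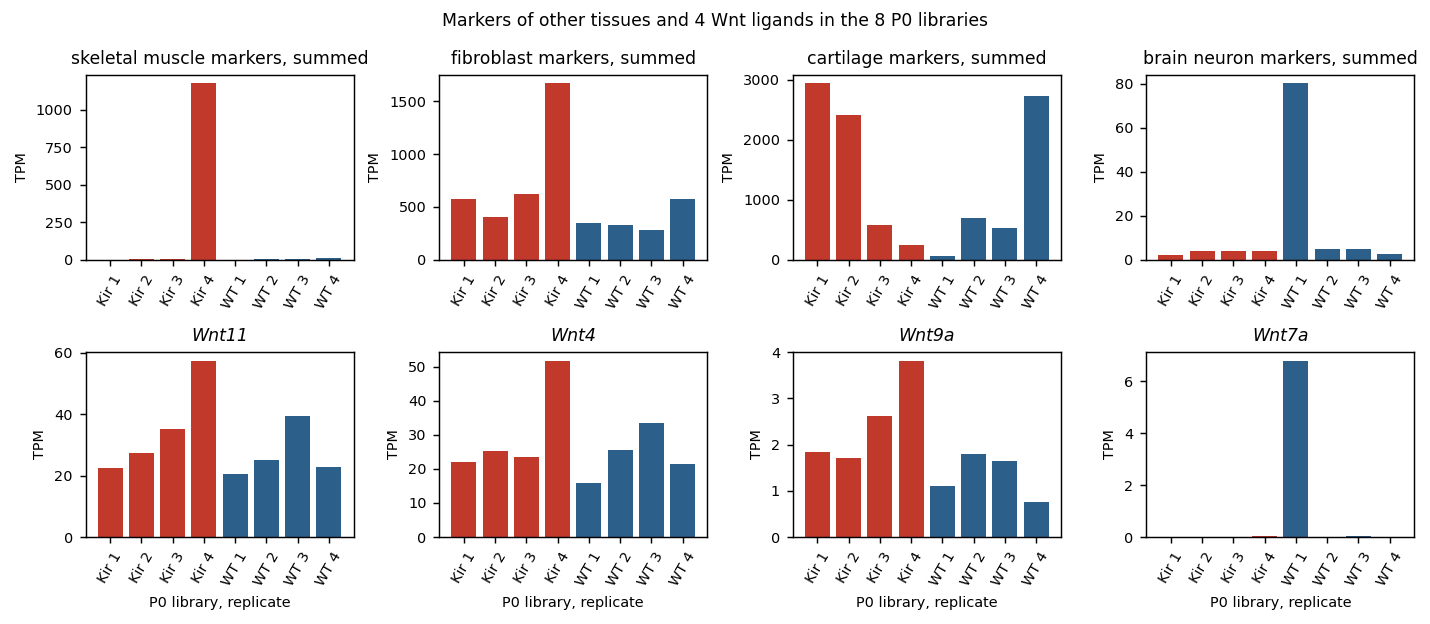
TPM (y axis) in the 4 Kir and 4 WT libraries at P0, 1 bar per library, for the summed markers of 4 other tissues (top) and for 4 Wnt ligands (bottom). Kir replicate 4 is highest in muscle and fibroblast markers and in Wnt11, Wnt4 and Wnt9a, and WT replicate 1 is highest in brain neuron markers and holds nearly all Wnt7a.

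The epithelium expressed ligands, receptors and antagonists in a few abundant genes and many scarce ones. Levels are given as TPM, which is per transcript length and can be compared between genes. Among the ligands, Wnt7b had the highest median, 34.3 TPM in Kir libraries and 32.9 TPM in WT libraries. Wnt4 followed, with medians of 22.0 TPM in Kir libraries and 20.1 TPM in WT libraries. Wnt11, Wnt5a, Wnt2b, Wnt5b and Wnt6 had medians between 3.27 and 7.96 TPM in Kir libraries and between 3.33 and 7.13 TPM in WT libraries. Wnt9a and Wnt10b had medians between 1.11 and 1.995 TPM in both genotypes, and the remaining 10 ligands had medians of at most 0.64 TPM.

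All 10 Frizzled receptors were found. Fzd8, Fzd2, Fzd7, Fzd3, Fzd1 and Fzd6 had medians between 15.9 and 35.4 TPM in Kir libraries and between 15.5 and 31.0 TPM in WT libraries. Fzd4 had medians of 7.02 TPM in Kir and 6.84 TPM in WT libraries, and Fzd5, Fzd9 and Fzd10 had medians between 0.715 and 2.48 TPM in both genotypes. Of the secreted antagonists, Sfrp1 had the highest median of all 44 genes, 64.7 TPM in Kir libraries and 67.0 TPM in WT libraries. Sfrp2 had medians of 41.4 TPM in Kir and 39.3 TPM in WT libraries, and Sfrp4 and Dkk3 lay between 18.1 and 22.1 TPM. Dkk3 belongs to the Dickkopf family by sequence but is not known to block Lrp co-receptors as Dkk1 does.

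R-spondins were scarce: Rspo1 had medians of 4.65 TPM in Kir and 3.65 TPM in WT libraries, and Rspo2, Rspo3 and Rspo4 were at or below 0.76 TPM. Their receptor Lgr4 was abundant, with medians of 32.7 TPM in Kir and 40.1 TPM in WT libraries, while Lgr5 and Lgr6 had medians between 4.70 and 6.06 TPM. Neighbours in these orders, such as Fzd3 and Fzd1, overlapped in their ranges over libraries.

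**Figure D2:**
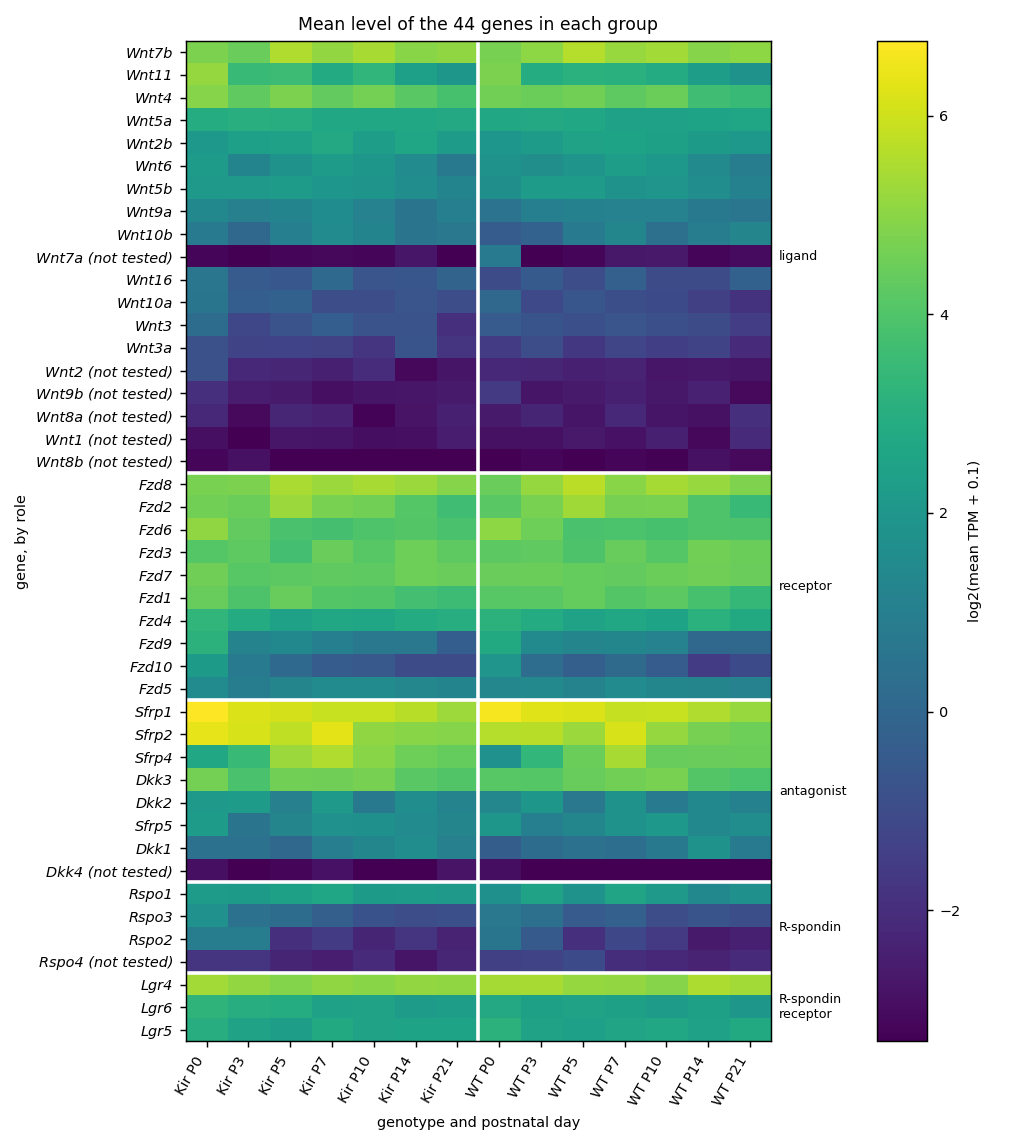
Mean level of the 44 genes (rows, grouped by role) in each genotype and age (columns), as log2 of the mean TPM plus 0.1. Sfrp1 and Sfrp2 are the brightest antagonists, Wnt7b, Wnt11 and Wnt4 are the brightest ligands at P0, and 8 genes marked as not tested were too low for the count test.

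Between birth and 3 weeks of age, most of the Wnt genes that changed fell. Of the 36 genes with enough counts to test, 23 fell and 1 rose between P0 and P21 in Kir libraries, and 18 fell and 2 rose in WT libraries. Across all 19927 genes tested, 48.7% were called in Kir (22.9% higher and 25.8% lower) and 50.6% in WT (23.9% higher and 26.7% lower), so a call by itself was common, and the Wnt genes leaned to the lower side. The median log2 fold change of the 36 genes was -0.94 in Kir and -0.49 in WT, beside -0.04 in Kir and -0.05 in WT over all genes tested. Calls here and below come from edgeR's quasi-likelihood F test on the counts of all 47 libraries, with an adjusted p below 0.05. In both genotypes, 18 genes were lower: the ligands Wnt3, Wnt4, Wnt5b, Wnt6, Wnt10a and Wnt11, the receptors Fzd1, Fzd2, Fzd4, Fzd6, Fzd9 and Fzd10, the antagonists Sfrp1, Sfrp2 and Dkk3, the R-spondins Rspo2 and Rspo3, and the receptor Lgr6. Without Kir P0 replicate 4 and WT P0 replicate 1, 19 genes were called in each genotype, of which 19 in Kir and 18 in WT were among those called with all libraries, and 42.9% of all genes were called in Kir and 46.4% in WT.

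Cell types changed over the same span. At P21 against P0, the mature neuron markers (5 of 5 genes) and sustentacular cell markers (4 of 4) rose in both genotypes, and the globose basal and cycling markers (5 of 5), cartilage markers (5 of 5) and endothelial markers (4 of 4) fell in both. In Kir libraries 4 of 4 horizontal basal markers also fell, as did 2 of 4 in WT. Of the 5 fibroblast markers, 3 rose and 1 fell in Kir, and 4 rose and 1 fell in WT. Fibroblast markers summed to 1571 to 3566 TPM in Kir P21 libraries against 409 to 1668 TPM in Kir P0 libraries, and to 1065 to 3778 TPM in WT P21 libraries against 284 to 571 TPM in WT P0 libraries. In bulk tissue, fewer cells of a type and less RNA per cell cannot be told apart, and the part of these shifts in the results below was not tested.

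Among the ligands, 7 of 13 tested fell and none rose in Kir libraries, and 6 fell and 1 rose in WT libraries. Wnt11, a ligand of the pathway without beta-catenin (chromosome 7, 98835112 to 98855195, plus strand, GRCm38), had 4.19, 2.18 and 5.49 TPM in Kir P21 libraries, against 22.4, 27.5, 35.2 and 57.5 TPM in Kir P0 libraries. It had 3.81, 3.18 and 3.38 TPM in WT P21 libraries, against 20.7, 25.1, 39.6 and 22.9 TPM in WT P0 libraries. Every P21 library lay below every P0 library, and Kir P0 replicate 4 held the highest value. The log2 fold change was -3.07 ± 0.40 (SE) in Kir (adjusted p = 1.1e-07, edgeR) and -3.26 ± 0.41 in WT (adjusted p = 5.5e-08, edgeR).

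The means of Wnt11 were lower at every later age than at P0. Its mean was 35.7 TPM at P0, 11.2 at P3, 11.9 at P5, 6.96 at P7, 9.95 at P10, 4.997 at P14 and 3.95 at P21 in Kir libraries. In WT libraries it was 27.1, 7.46, 8.65, 8.38, 7.19, 4.93 and 3.46 TPM at the same ages. The step between P0 and P3 in WT rests on the library with conflicting labels: the log2 fold change of P3 over P0 was -2.14 with it at P0 and -0.72 with it at P3. Wnt11 made up 5.34% ± 1.79 of the summed ligand TPM at P21 and 28.6% ± 2.4 at P0 in Kir libraries (SD, n = 3 and n = 4). In WT libraries it made up 5.17% ± 0.59 at P21 and 26.7% ± 3.2 at P0 (SD, n = 3 and n = 4).

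Wnt4 (chromosome 4, 137277489 to 137299726, plus strand), a ligand best known for its role in kidney and reproductive tract development, had 13.1, 12.2 and 16.9 TPM in Kir P21 libraries, against 22.0, 25.3, 23.6 and 51.8 TPM in Kir P0 libraries. It had 11.8, 11.9 and 9.11 TPM in WT P21 libraries, against 16.0, 25.5, 33.5 and 21.3 TPM in WT P0 libraries. The ages did not overlap in either genotype. The change on the log2 scale was -1.20 ± 0.24 in Kir and -1.30 ± 0.24 in WT (SE, adjusted p = 8.5e-05 in Kir and 3.1e-05 in WT, edgeR). The decline was not even over the ages. At P3 Wnt4 had 20.4, 16.9 and 20.7 TPM in Kir and 22.6, 20.1 and 24.8 TPM in WT. At P5 it had 26.1, 27.0 and 27.8 TPM in Kir and 22.7, 25.3 and 25.7 TPM in WT.

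Wnt7b, which signals through beta-catenin in several epithelia, was not called: it averaged 33.9 ± 6.5 TPM at P21 and 27.5 ± 7.3 TPM at P0 in Kir, and 33.2 ± 1.4 TPM at P21 and 25.6 ± 8.1 TPM at P0 in WT (SD, n = 3 and n = 4). As other ligands fell, its share of the summed ligand TPM was 46.6% ± 5.5 at P21 and 23.2% ± 5.9 at P0 in Kir, and 49.7% ± 4.3 at P21 and 25.3% ± 5.2 at P0 in WT. The summed ligand level was 72.4 ± 7.6 TPM at P21 and 123 ± 46.95 TPM at P0 in Kir (101 ± 18.5 TPM at P0 without replicate 4), and 67.0 ± 3.4 TPM at P21 and 100 ± 19.9 TPM at P0 in WT. Wnt10b, singled out after its values were seen because it went the other way, rose in WT by 1.53 ± 0.54 on the log2 scale (adjusted p = 0.018, edgeR) and had a log2 fold change of -0.12 ± 0.51 in Kir. Without WT P21 replicate 2, the WT P21 library highest in fibroblast and bone markers, its log2 fold change in WT was 0.86, and it was not called.

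The low ligands rest on few reads. Wnt3 had 15 counts in all at P21 and 103 at P0 in Kir, and 19 at P21 and 67 at P0 in WT. Its log2 fold change was -2.33 in Kir and -1.74 without Kir P0 replicate 4, and its call in WT was lost without WT P0 replicate 1 (-0.97, against -1.49 with it). Among the ligands, Wnt3a was called in Kir only, and it was not called without Kir P0 replicate 4 (-0.88, against -1.51 with it). Wnt10a had 20 counts at P21 and 103 at P0 in Kir, and 9 at P21 and 58 at P0 in WT. It was lost in Kir without Kir P0 replicate 4 (-0.70, against -1.91 with it), and in WT without WT P0 replicate 3 (-1.68) or WT P21 replicate 3 (-1.81), against -2.34 with all libraries. Wnt5b fell by 0.95 in Kir and by 0.73 in WT on the log2 scale, and its WT call was lost without WT P0 replicate 1 (-0.51) or WT P21 replicate 1 (-0.56).

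Of the 10 receptors, 6 fell and none rose in each genotype, and they were the same 6. Fzd10 (chromosome 5, 128600844 to 128604093, plus strand) had 0.51, 0.25 and 0.48 TPM in Kir P21 libraries, against 4.24, 3.76, 2.78 and 6.59 TPM in Kir P0 libraries. It had 0.39, 0.43 and 0.31 TPM in WT P21 libraries, against 2.47, 3.29, 5.77 and 3.30 TPM in WT P0 libraries. The ages were far apart in both genotypes. This gave a log2 fold change of -3.48 ± 0.47 in Kir (adjusted p = 1.5e-07, edgeR) and -3.62 ± 0.48 in WT (adjusted p = 1.2e-07, edgeR), the largest fall in WT among members with at least 5 CPM at either age.

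Fzd9 (chromosome 5, 135248938 to 135251230, minus strand), a receptor expressed in neural and bone precursors, had 0.67, 0.64 and 0.83 TPM in Kir P21 libraries, against 8.91, 11.6, 9.15 and 5.65 TPM in Kir P0 libraries. It had 1.13, 0.69 and 0.95 TPM in WT P21 libraries, against 5.96, 6.21, 5.95 and 9.12 TPM in WT P0 libraries. Again no P21 library reached a P0 library. On the log2 scale the change was -3.61 ± 0.35 in Kir and -3.07 ± 0.34 in WT (SE; adjusted p = 2.3e-10 in Kir and 3.8e-09 in WT, edgeR).

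Fzd6 (chromosome 15, 39006034 to 39038188, plus strand), a receptor known for planar cell polarity and hair orientation, fell less and kept a substantial level. It had 13.6, 14.3 and 15.7 TPM in Kir P21 libraries, against 35.4, 33.0, 26.5 and 40.6 TPM in Kir P0 libraries. It had 16.3, 14.6 and 14.7 TPM in WT P21 libraries, against 35.1, 33.8, 39.1 and 24.7 TPM in WT P0 libraries. Its mean had reached 14.4 TPM in Kir and 14.3 TPM in WT by P5, and later group means lay between 13.8 and 16.8 TPM in both genotypes. The log2 fold change was -1.25 ± 0.16 in Kir and -1.20 ± 0.16 in WT (SE; adjusted p = 4.3e-08 in Kir and 8.4e-08 in WT, edgeR).

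Fzd1 fell by 0.94 in Kir and by 0.89 in WT on the log2 scale and Fzd2 by 1.02 in Kir and by 0.87 in WT. Fzd4, which also serves as a receptor for Norrin in the eye, fell by 0.44 in Kir and by 0.48 in WT on the log2 scale. The Fzd4 call in Kir was lost without Kir P0 replicate 4 (-0.31). Fzd3, Fzd5, Fzd7 and Fzd8 were not called in either genotype. The means of Fzd2 were highest in between, at 37.9 TPM in Kir and 39.6 TPM in WT at P5. The P5 and P10 libraries carry the title prefix cry6, those of P0, P3, P14 and P21 carry cry4 and those of P7 are split among cry3, cry4 and cry6, and the labels do not say what the prefix stands for. Fzd2 at P5 against P0 was not tested.

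**Figure D3:**
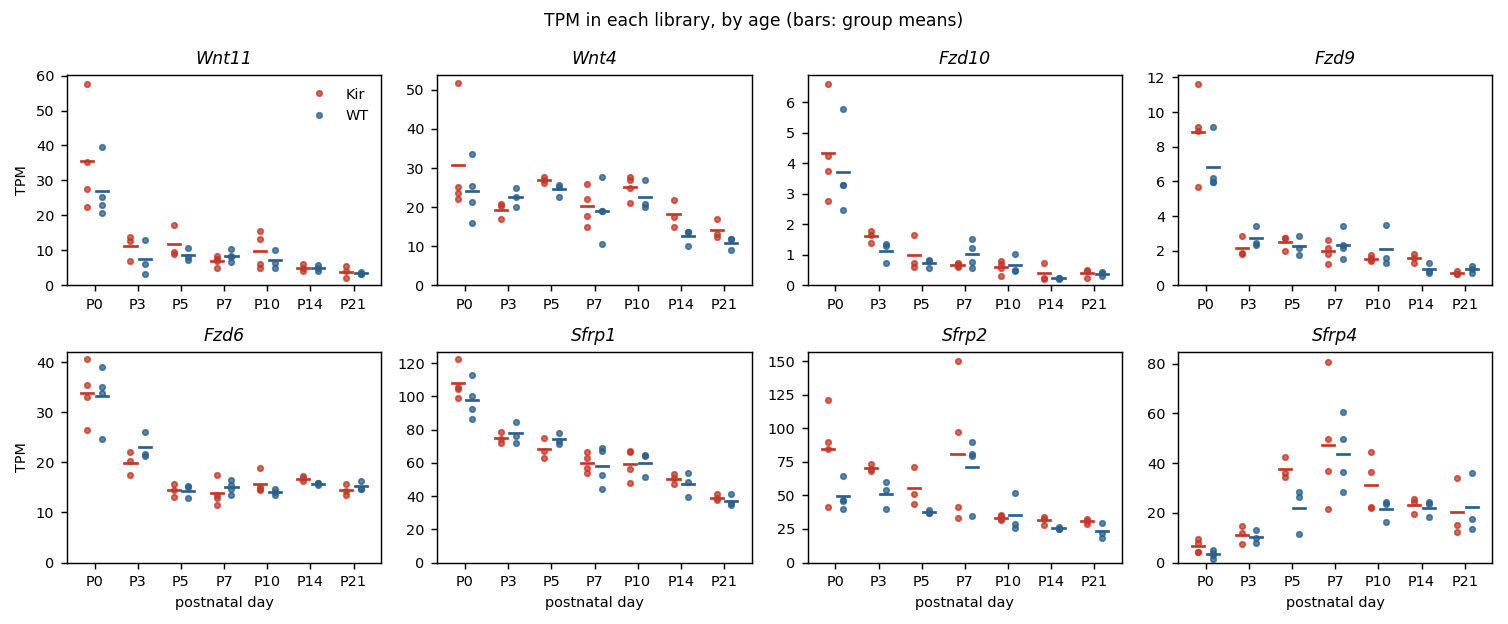
TPM in each library (points) and group means (bars) at each postnatal day for 8 named genes, Kir left of WT at each age. The means of Wnt11, Fzd10, Fzd9 and Fzd6 are highest at P0, the Sfrp1 means decline from age to age except between P7 and P10 in WT, and Sfrp4 is lowest at P0 and highest at P7.

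The antagonists split: 5 of the 7 tested fell and 1 rose in Kir libraries, and 3 fell and 1 rose in WT libraries. Sfrp1 (chromosome 8, 23411502 to 23449632, plus strand), the most abundant of all 44, had 38.8, 41.1 and 37.5 TPM in Kir P21 libraries, against 122, 98.8, 105 and 106 TPM in Kir P0 libraries. It had 35.9, 34.4 and 41.2 TPM in WT P21 libraries, against 101, 92.6, 86.3 and 113 TPM in WT P0 libraries. The replicates lay close together and the ages far apart. Its log2 fold change was -1.53 ± 0.15 in Kir and -1.49 ± 0.15 in WT (SE; adjusted p = 2.6e-10 in Kir and 3.9e-10 in WT, edgeR). Sfrp1 declined more evenly over the ages than Wnt11, with means of 108 TPM at P0, 74.96 at P3, 68.5 at P5, 60.0025 at P7, 59.5 at P10, 50.3 at P14 and 39.1 at P21 in Kir. In WT the means were 98.1, 77.7, 74.2, 58.3, 60.1, 47.2 and 37.1 TPM at the same ages.

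Sfrp2 (chromosome 3, 83766321 to 83774316, plus strand), which is also made by mesenchymal cells, had 31.1, 28.8 and 32.2 TPM in Kir P21 libraries, against 84.5, 41.5, 90 and 121 TPM in Kir P0 libraries. It had 22.1, 29.6 and 18.1 TPM in WT P21 libraries, against 46.9, 40.1, 46.2 and 64.4 TPM in WT P0 libraries. The ages did not overlap, but the P0 libraries were spread. So were those of P7, at 97.2, 33.5, 41.2 and 150 TPM in Kir and 79.3, 80.8, 34.6 and 89.5 TPM in WT. In each genotype these P7 values are of the prefixes cry4, cry6, cry6 and cry3, in that order. P21 over P0 gave a log2 fold change of -1.46 ± 0.29 in Kir and -1.29 ± 0.30 in WT (SE; adjusted p = 1.1e-04 in Kir and 4.9e-04 in WT, edgeR).

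Sfrp4 (chromosome 13, 19623104 to 19632994, plus strand), an Sfrp known for its role in bone turnover, went the other way and was the one member called higher at P21 in both genotypes. It had 12.4, 34.0 and 15.0 TPM in Kir P21 libraries, against 7.93, 4.21, 4.38 and 9.45 TPM in Kir P0 libraries. It had 17.5, 36.1 and 13.4 TPM in WT P21 libraries, against 3.82, 2.85, 1.55 and 5.04 TPM in WT P0 libraries. The ages did not overlap, although replicate 2 of each P21 group lay well above the other two. On the log2 scale P21 over P0 was 1.65 ± 0.38 in Kir and 2.74 ± 0.40 in WT (SE; adjusted p = 4.6e-04 in Kir and 7.8e-07 in WT, edgeR). Its highest means were at P7, 47.2 ± 25.2 TPM in Kir and 43.8 ± 14.1 TPM in WT (SD, n = 4 each). The cry6 libraries of P7 were the lowest of that age, at 21.5 and 36.9 TPM in Kir and 28.5 and 36.4 TPM in WT. At P5, where all libraries carry cry6, Sfrp4 had 42.3, 34.4 and 35.9 TPM in Kir and 11.4, 26.3 and 28.5 TPM in WT. The part of the prefix in the P7 means was not tested. Bone markers (Bglap, Ibsp, Sp7, Alpl) rose with it, 3 of 4 in Kir and 4 of 4 in WT. Of the 5 fibroblast markers, 3 rose and 1 fell in Kir, and 4 rose and 1 fell in WT. The part of these markers in the rise of Sfrp4 was not tested. The replicate 2 libraries were also the highest of their P21 groups in fibroblast markers, at 3566 TPM in Kir and 3778 TPM in WT, and in bone markers, at 738 TPM in Kir and 698 TPM in WT. Dkk3 did not decline evenly over the ages. At P0 it had 20.1 to 35.6 TPM in Kir and 16.7 to 18.5 TPM in WT. At P10, where all libraries carry cry6, it had 23.1 to 27.35 TPM in Kir and 22.8 to 31.3 TPM in WT. For Dkk3, P10 against P0 was not tested. At P21 Dkk3 had 13.48, 20.07 and 15.06 TPM in Kir and 13.63, 19.57 and 11.46 TPM in WT. WT P21 replicate 2 lay above every WT P0 library in TPM. At P21 against P0, Dkk3 fell in both genotypes, by 0.70 in Kir and by 0.42 in WT on the log2 scale. Its WT call was lost without WT P0 replicate 1 (-0.38) or WT P0 replicate 3 (-0.40). Dkk2 (-1.06) and Sfrp5 (-0.93) were called in Kir only, and the Sfrp5 call was lost without Kir P0 replicate 3 (-0.70).

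Of the 3 R-spondins tested, 2 fell in each genotype and Rspo1 was not called in either. Rspo3 had 0.45, 0.53 and 0.39 TPM in Kir P21 libraries, against 4.19, 4.31, 2.15 and 2.48 TPM in Kir P0 libraries, and 0.42, 0.68 and 0.21 TPM in WT P21 libraries, against 1.13, 1.85, 1.66 and 1.55 TPM in WT P0 libraries. Its log2 fold change was -3.07 ± 0.41 in Kir and -1.94 ± 0.42 in WT. Rspo2 was rarer still, with 7 counts over 3 libraries at P21 and 177 over 4 at P0 in Kir, and 6 counts over 3 libraries at P21 and 131 over 4 at P0 in WT. Of their receptors, Lgr6 fell in both genotypes, by 0.98 in Kir and by 0.86 in WT on the log2 scale, while Lgr4 and Lgr5 were called in Kir alone. Both of those calls were lost without Kir P0 replicate 4, at -0.27 for Lgr4 and -0.44 for Lgr5.

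**Figure D4:**
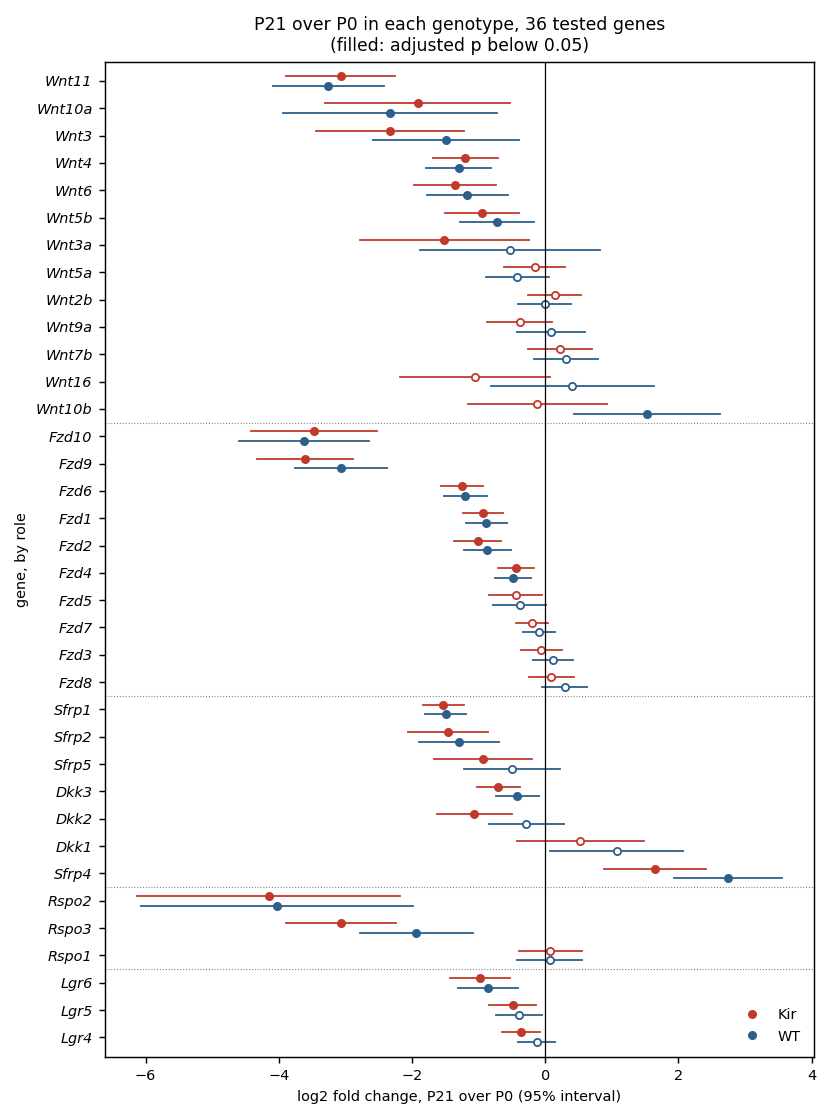
Log2 fold change of P21 over P0 (x axis) with 95% intervals for the 36 tested genes, grouped by role, Kir above WT for each gene; filled points are called at adjusted p below 0.05. Most points lie left of 0 in both genotypes, Sfrp4 lies right of it in both, and the Kir and WT intervals of each gene overlap.

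Whether the change between P0 and P21 differed between genotypes was tested directly. None of the 36 genes was called (0.251% of all genes tested were), 1 had an unadjusted p below 0.05 in edgeR, and DESeq2 and limma called 0. The gene with the smallest p was Wnt10b, with a difference of -1.65 ± 0.75 on the log2 scale (adjusted p = 0.64, edgeR). The 5 genes called in Kir alone and the 1 called in WT alone are therefore not shown to differ between genotypes.

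Part of the fall lay within the first days. At P3 against P0 in WT, 7 of the 36 genes fell and 2 rose, where 20.4% of all genes were called (8.58% higher and 11.8% lower). Wnt11 had 3.38, 6.09 and 12.9 TPM in WT P3 libraries, and its log2 fold change from P0 was -2.14. Fzd10 was at -1.81, Fzd9 at -1.43, Sfrp5 at -1.22, Lgr5 at -0.63, Fzd6 at -0.62 and Sfrp1 at -0.42, while Sfrp4 rose by 1.53 and Fzd8 by 0.62. These calls depend on the library with conflicting labels: with it placed at P3, 1 gene was called, and the log2 fold change of Fzd10 was -0.41. Sustentacular markers summed to 565 to 1061 TPM in the 4 WT P0 libraries, this one included, and to 2263 to 3106 TPM at WT P3. Mature neuron markers summed to 499 to 749 TPM and 1106 to 1457 TPM. Over this span cartilage markers fell (5 of 5) and globose basal and cycling markers rose (4 of 5) in WT, and their part was not tested.

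At P14 against P3 in WT, 8 genes fell and 2 rose, where 22.4% of all genes were called (12.8% higher and 9.61% lower). Fzd10 fell by 2.17, Fzd9 by 1.49, Sfrp2 by 1.16, Wnt4 by 0.93, Rspo1 by 0.90, Fzd2 by 0.78, Sfrp1 by 0.77 and Fzd6 by 0.60 on the log2 scale. Dkk1, an inhibitor of the Lrp co-receptors, rose by 1.62 and Sfrp4 by 1.12. Over the same span globose basal and cycling markers were lower in WT for 5 of 5 genes (median log2 fold change -1.43). Mature neuron markers were higher for 5 of 5 (median 1.39). The part of these shifts in the 8 falls was not tested. Also, 4 of 4 bone markers were higher in WT (median log2 fold change 2.04), as were 3 of 5 fibroblast markers. WT P14 replicates 1, 2 and 3 had 4.01, 4.78 and 1.66 TPM of Dkk1, fibroblast markers summing to 3947, 4632 and 1211 TPM and bone markers summing to 655, 643 and 227 TPM. The library lowest in Dkk1 was also lowest in both marker sums, and the part of these markers in the 2 rises was not tested. At P21 against P14 no gene of the group was called (0.0452% of all genes were), with 2 at an unadjusted p below 0.05 in edgeR and 0 called by DESeq2 and limma. At P10 against P5 none was called either (1.91% of all genes were), with 4 at an unadjusted p below 0.05 in edgeR, 1 called by DESeq2 and 0 by limma.

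The rest of the pathway was described by 4 lists. Their counts stand beside the shares of all genes tested. These were 48.7% called in Kir (22.9% higher and 25.8% lower) and 50.6% in WT (23.9% higher and 26.7% lower). A call in a list was therefore common by itself. Of 11 tested co-receptor and secretion genes, 8 fell and 1 rose between P0 and P21 in Kir, and 9 fell and 1 rose in WT. Ptk7, a co-receptor in planar cell polarity, averaged 24.8 ± 2.6 TPM at P21 and 66.4 ± 10.3 TPM at P0 in Kir, and 21.1 ± 1.4 TPM at P21 and 53.3 ± 4.9 TPM at P0 in WT (SD, n = 3 and n = 4). Its log2 fold change was -1.49 in Kir and -1.45 in WT. Ror2, the receptor kinase that binds Wnt5a, was at -2.69 in Kir and -2.10 in WT, Lrp5 at -0.92 in Kir and -1.14 in WT, and Kremen1, a receptor for Dkk1, at -0.72 in Kir and -0.73 in WT.

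Of 9 other extracellular modulators, 4 fell and 2 rose in Kir, and 4 fell and 3 rose in WT. Ndp, which encodes Norrin, a ligand of Fzd4 that is not a Wnt, rose by 1.83 in Kir and by 1.85 in WT on the log2 scale, reaching 31.1 ± 7.1 TPM at P21 against 8.36 ± 2.27 TPM at P0 in Kir, and 34.2 ± 0.7 TPM at P21 against 9.22 ± 2.15 TPM at P0 in WT. The glypican Gpc3 was at -3.53 in Kir and -3.34 in WT. Frzb, a Wnt-binding protein known from cartilage, was at -2.02 in Kir and -2.64 in WT, beside the fall of the cartilage markers, and Tpbg was at -1.39 in Kir and -0.96 in WT.

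Of 15 intracellular transducers, 8 fell and 2 rose in Kir, and 7 fell and 2 rose in WT. The transcription factor Tcf7l1 was at -1.09 in Kir and -1.10 in WT and Tcf7l2 at -0.55 in Kir and -0.65 in WT, while Pygo1, a co-activator of beta-catenin, rose by 1.05 in Kir and by 1.13 in WT and the kinase Gsk3b by 0.27 in Kir and 0.41 in WT on the log2 scale. Of 12 feedback and target genes, 6 fell and none rose in Kir, and 9 fell and none rose in WT. Axin2, the most widely used readout of the beta-catenin pathway, averaged 16.3 ± 5.0 TPM at P21 and 17.4 ± 1.3 TPM at P0 in Kir, and 12.2 ± 1.2 TPM at P21 and 18.4 ± 3.9 TPM at P0 in WT (SD, n = 3 and n = 4). It fell in WT by 0.82 on the log2 scale and was not called in Kir (-0.32, adjusted p = 0.060, edgeR). Myc, a target shared with many other pathways, was at -1.73 in Kir and -1.71 in WT, Nkd2 at -1.08 in Kir and -1.56 in WT, and Sp5, which was below 2 TPM on average at both ages, at -3.74 in Kir and -3.80 in WT.

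Averaged over the 7 ages with each age weighted equally, 3 of the 36 genes were higher in Kir and none was lower, where 10.4% of all genes were called (3.03% higher and 7.38% lower). The 3 were Rspo1, Lgr6 and Wnt5a. Of the 36, 10 had an unadjusted p below 0.05, 28 of the log2 differences were positive, and the median log2 difference of the group was 0.10, beside 0.01 over all genes. The count was 1 without WT P5 replicate 1, 6 without WT P7 replicate 2 or WT P10 replicate 3, and 5 without Kir P0 replicate 2, Kir P3 replicate 1, Kir P3 replicate 3, Kir P14 replicate 1, WT P7 replicate 1 or WT P21 replicate 2.

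Rspo1 (chromosome 4, 124986430 to 125009099, plus strand), a ligand of Lgr4 to Lgr6 that strengthens Wnt signaling, lay between 2.97 and 10.2 TPM in the 24 Kir libraries with a median of 4.65, and between 1.84 and 7.29 TPM in the 23 WT libraries with a median of 3.65. The ranges over all ages overlapped, but the mean TPM of Rspo1 was higher in Kir at 6 of the 7 ages. At P21 it had 4.54, 4.40 and 4.02 TPM in Kir and 3.25, 2.92 and 3.45 TPM in WT, at P14 it had 3.76, 4.11 and 5.87 TPM in Kir and 2.17, 3.45 and 1.84 TPM in WT, and at P5 it had 4.92, 4.65 and 5.83 TPM in Kir and 3.49, 3.65 and 3.32 TPM in WT. In TPM the genotypes did not overlap at these 3 ages. At P3 the Kir mean TPM was the lower one, with 5.02, 5.20 and 2.97 TPM in Kir and 6.5, 5.27 and 4.88 TPM in WT. In CPM, P14 overlapped, at 3.05, 4.64 and 5.27 in Kir and 3.02, 3.41 and 2.13 in WT. At P3 the Kir mean was the higher one in CPM, with 6.04, 7.71 and 3.75 in Kir and 5.28, 5.91 and 4.64 in WT. The genotypes overlapped at P0, with 4.31, 3.74, 5.45 and 4.72 TPM in Kir and 2.54, 5.03, 2.69 and 2.56 TPM in WT. At P7 Rspo1 had 5.04, 4.09, 4.97 and 10.24 TPM in Kir and 7.29, 4.8, 5.23 and 5.64 TPM in WT, and replicate 4 was the one Kir P7 library above the highest WT value. The averaged log2 difference was 0.35 ± 0.09 (SE, adjusted p = 0.0068, edgeR).

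Lgr6 (chromosome 1, 134983301 to 135105276, minus strand), one of the R-spondin receptors, lay between 3.95 and 10.3 TPM in Kir libraries with a median of 5.90, and between 3.32 and 8.19 TPM in WT libraries with a median of 4.70. At P0 it had 9.01, 9.04, 9.08 and 10.3 TPM in Kir and 5.22, 7.54, 7.11 and 6.62 TPM in WT, with no overlap. It was higher in Kir at 6 of the 7 ages. The averaged log2 difference was 0.27 ± 0.08 (SE, adjusted p = 0.029, edgeR). Wnt5a (chromosome 14, 28504750 to 28527448, plus strand) lay between 4.51 and 13.4 TPM in Kir libraries with a median of 6.57, and between 2.68 and 9.09 TPM in WT libraries with a median of 5.70. It was higher in Kir at all 7 ages, at P0 only through replicate 4, with an averaged log2 difference of 0.28 ± 0.09 (SE, adjusted p = 0.034, edgeR). At P0 Wnt5a had 4.51, 6.67, 4.91 and 13.43 TPM in Kir and 9.08, 4.71, 5.2 and 6.49 TPM in WT. Replicate 4, the library with muscle and fibroblast markers, was the 1 Kir P0 library above the highest WT value. Without it, the mean TPM of Wnt5a at P0 was lower in Kir than in WT. The Lgr6 call was lost without WT P5 replicate 1 (0.25, adjusted p = 0.055), and the Wnt5a call was lost without any 1 of several libraries, WT P14 replicate 3 among them (0.25, adjusted p = 0.065, edgeR). Sfrp2 (0.32, adjusted p = 0.053) and Lgr4 (-0.16, adjusted p = 0.052, edgeR) lay just outside the threshold.

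The titles carry the prefixes cry3, cry4 and cry6, and the genotype difference was also taken within a prefix. Over the 26 cry4 libraries of 4 ages, the log2 difference was 0.45 for Rspo1 (adjusted p = 0.041), 0.32 for Lgr6 (adjusted p = 0.016) and 0.28 for Wnt5a (adjusted p = 0.23, edgeR). Over the 17 cry6 libraries of 3 ages it was 0.15 for Rspo1 (adjusted p = 0.58), 0.43 for Lgr6 (adjusted p = 0.14) and 0.34 for Wnt5a (adjusted p = 0.16, edgeR). Of the tested members, 30 of 36 log2 differences were positive within cry4 and 18 of 37 within cry6. The matching shares over all genes were not taken. Values that missed the threshold do not show that the genotypes were alike. The prefix cry3 has 1 library of each genotype and gives no value. Over the same averaged comparison, macrophage markers (C1qa, C1qb, Csf1r, Trem2) were higher in Kir for 4 of 4 genes with a median log2 difference of 0.55, mature neuron markers were lower for 5 of 5 with a median of -0.43, and fibroblast markers were called for 0 of 5 with a median of 0.36. Of the bone markers 1 of 4 was higher in Kir, Sp7 (0.48, adjusted p = 0.023, edgeR), with a median of 0.42. Their part in the differences of Rspo1, Lgr6 and Wnt5a was not tested.

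**Figure D5:**
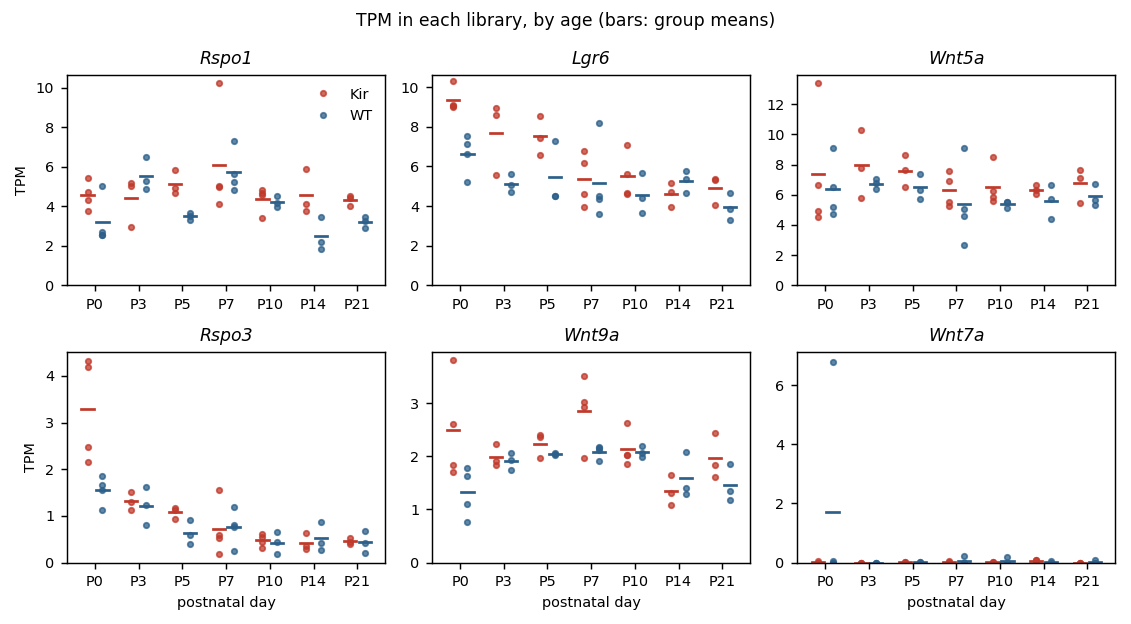
TPM in each library (points) and group means (bars) at each postnatal day for Rspo1, Lgr6, Wnt5a, Rspo3, Wnt9a and Wnt7a, Kir left of WT. The Kir means of Rspo1 and Lgr6 lie above the WT means at 6 of 7 ages, Rspo3 separates the genotypes at P0, and Wnt7a stands out in 1 WT library at P0.

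At single ages the genotypes rarely differed. At P0, 2 of the 36 genes were called, both higher in Kir (0.984% of all genes were called), 11 had an unadjusted p below 0.05, and 34 of the 36 log2 differences were positive. The median log2 difference of the 36 was 0.31 at P0, beside 0.005 over all genes tested. All were measured in the same libraries, so their signs are not independent of each other. Kir P0 replicate 4 was the highest of the 4 Kir P0 libraries for 23 of the 36. Markers of other tissues also differed at P0: bone markers summed to 20.2 to 200.2 TPM in Kir and 11.5 to 55.7 TPM in WT (1 of 4 called, higher, median log2 difference 2.13), and 3 of 4 muscle markers were higher in Kir. Of the mature neuron markers 2 of 5 were lower in Kir, as were 1 of 4 ensheathing glia markers and 2 of 3 tested brain neuron markers. Their part in the P0 differences of the Wnt genes was not tested. Rspo3 (chromosome 10, 29452416 to 29535867, minus strand) had a log2 difference of 1.30 ± 0.32 (SE, adjusted p = 0.040, edgeR), from the P0 values given above, which did not overlap. Wnt9a (chromosome 11, 59306928 to 59333552, plus strand) had 1.84, 1.71, 2.62 and 3.82 TPM in Kir and 1.10, 1.79, 1.64 and 0.76 TPM in WT at P0, which overlapped, with a log2 difference of 0.89 ± 0.23 (SE, adjusted p = 0.049, edgeR). Neither was called without Kir P0 replicate 4, the library with muscle and fibroblast markers: Rspo3 was then at 1.40 (adjusted p = 0.096) and Wnt9a at 0.56 (adjusted p = 0.46, edgeR). The number called at P0 and the other ages together was also 0 without WT P0 replicate 1, 4 without Kir P0 replicate 2, and 1 without most of the other libraries taken singly.

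At the other ages edgeR called none of the 36 genes. The share of all genes called, and the number of the 36 with an unadjusted p below 0.05, were 0.713% and 3 at P3, 0.115% and 4 at P5, 0.0753% and 0 at P7, 3.11% and 2 at P10, 1.18% and 3 at P14, and 0.758% and 1 at P21. In the lists of the rest of the pathway, the averaged comparison called Vangl1, a planar polarity protein (0.14, adjusted p = 0.034), and Nkd2 (0.22, adjusted p = 0.035, edgeR), both higher in Kir. Of all genes, 10.4% were called in that comparison.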

How the data were processed

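PolyA RNA of olfactory epithelium was sequenced in 47 libraries. The authors deposited gene counts per library and a TPM table. Per the submitters' processing notes, reads were handled with bcl2fastq 2.18, STAR 2.6.1c and RSEM on the mm10 build; of the strand setting nothing is said in those notes. The 4 lines of each count file that name no gene (multimapping, unmapped, ambiguous and no feature) were left out; between 1.31% and 33.5% of the reads of a library were unmapped. The deposited TPM values were used for levels, and the deposited counts for every fold change and test. No column of the TPM table was without a sample (0). The gene counts summed to 8107547 to 30385151 per library, and genes with few counts carry wide errors.

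Counts were tested in R 4.3.3 with edgeR 4.0.16: TMM factors, a filter on low counts (filterByExpr with a minimum count of 10, leaving 19927 of 54532 genes), and a quasi-likelihood F test with group (genotype and age) and title prefix as terms, over all 47 libraries, two-sided, with Benjamini-Hochberg adjustment over all genes tested and a threshold of 0.05. Standard errors are the log2 fold change over the square root of F. DESeq2 1.42.0 and limma 3.58.1 on log2(TPM + 1) were alternatives. The scripts were tested on simulated data. Gene coordinates are of GRCm38. None of 57 replicate pairs held identical values.

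The members and lists were chosen with earlier results of these data known. Library values at P0 and P21 are given for Sfrp1, Wnt11 and the 8 members with the largest change in WT between P21 and P0. Those 8 were taken from the members called with at least 5 CPM at either age. Members called between genotypes averaged over ages are given with ranges and with library values at some ages. Of each pathway list, 4 genes with the smallest adjusted p in WT are named. Other members given with values (Wnt3, Wnt3a, Wnt5b, Wnt7b, Wnt10a, Wnt10b, Rspo2, Rspo3, Wnt9a, Wnt7a, Dkk3 and Fzd4 among them) were picked after their values were seen. Replicate numbers were not used as pairs.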

Additional observations from a re-analysis of the deposited data

Results flagged for a closer look

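In groups of 4 libraries, 14 genes were examined over 70 groups for a library whose gap to its nearest neighbour took up most of the group's range (Dixon's test at the 95% level), and 9 values of a gene in a library stood out, where chance gives about 1 in 20 groups. Of the 9, 3 are of Wnt7a, which was chosen after its values were seen and lies at 0 in most libraries, so that rate does not apply to them. Kir P0 replicate 4 accounted for 3 of them: Wnt4 at 51.78 TPM (22.01 to 25.27 TPM in the other 3), Lgr6 at 10.29 TPM (9.01 to 9.08 TPM) and Wnt7a at 0.04 TPM (1 count, with 0 in the others). WT P0 replicate 1 stood out for Wnt7a at 6.8 TPM, WT P0 replicate 2 for Rspo1 at 5.03 TPM (2.54 to 2.69 TPM in the other 3) and WT P0 replicate 4 for Fzd9 at 9.12 TPM (5.95 to 6.21 TPM). Kir P7 replicate 4 stood out for Rspo1 at 10.24 TPM (4.09 to 5.04 TPM in the other 3), WT P7 replicate 3 for Wnt7a at 0.22 TPM (0 in the others) and Kir P10 replicate 2 for Fzd6 at 18.79 TPM (14.47 to 14.98 TPM).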

How the results depend on the processing

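The count of Wnt genes called at P21 against P0 lay between 15 and 24 in Kir and between 18 and 23 in WT over the alternatives that kept every group's replicates or dropped several libraries. Sfrp1, Wnt11, Fzd10, Fzd9, Sfrp4, Wnt4, Sfrp2 and Fzd6 kept their direction at P21 against P0. Rspo1, Lgr6 and Wnt5a kept theirs in the averaged genotype comparison. Other directions were not all checked, and some turned without Kir P0 replicate 4. In Kir against WT at P0, Wnt5a was then at -0.14 (0.23 with it) and Wnt4 at -0.10 (0.30 with it). At P21 against P0 in Kir, Wnt10b was at 1.07 (-0.12 with it). None of these was called. Without the 5 Kir libraries of low Kcnj2, 15 genes were called in Kir, where 25.6% of all genes were called against 48.7% with them, with 1 Kir P21 library left, which is assumed to vary like the other groups, and Wnt4 was at -0.88 (adjusted p = 0.070, edgeR). In the averaged genotype comparison DESeq2 called 6 genes, 5 higher and 1 lower, and 11.7% of all genes. At P3 against P0 in WT, 1 gene was called with WT P0 replicate 3 placed at P3. At P10 against P5 DESeq2 called 1. Over the single ages the genotypes gave 0 calls with no filter on low counts, 0 with limma on log2(TPM + 1), 1 with WT P0 replicate 3 placed at P3, and 0 without Kir P0 replicate 4 and WT P0 replicate 1 together, an alternative added after seeing the data; that last one left 19 calls at P21 against P0 in each genotype and the same 3 genes in the averaged comparison.

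Leaving out each library in turn gave 19 to 24 calls at P21 against P0 in Kir, 17 to 23 in WT, 1 to 6 in the averaged genotype comparison, 6 to 10 at P3 against P0, 8 to 9 at P14 against P3, 0 at P21 against P14, 0 to 1 at P10 against P5 (1 without WT P10 replicate 1), 0 to 4 over the single ages and 0 for the difference in age change. Of 19 pairs of same-numbered libraries, 13 of Kir with WT at an age and the others of P21 with P0 in a genotype, 4 had a correlation of deviations above 0.1, in a range from -0.19 to 0.30. All 4 were Kir with WT, among them the 3 pairs at P3 (0.17, 0.29 and 0.21). As other pairs lay below 0.1, the numbers were not taken to pair the samples, and 4 of 13 Kir libraries at these ages correlated best with the WT library of their own number. With the replicate number as a block over the P0, P3, P14 and P21 libraries, 18 genes were called at P21 against P0 in each genotype and 2 in the averaged comparison, against 22 in Kir, 19 in WT and 3 without the block. Rspo1 was then at 0.45 (adjusted p = 0.055) and Wnt5a at 0.26 (adjusted p = 0.20, edgeR). The cause of these shifts was not tested. Depth limits the low genes: 8 of the 44 could not be tested.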
